A study of Sus scrofa with 81 samples.

Results

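Mitochondrial biogenesis in muscle is directed by a small group of transcriptional regulators, and 8 of them were followed through pig development: the coactivators PPARGC1A and PPARGC1B, the nuclear receptors ESRRA, ESRRG, PPARA and PPARD, and the factors NRF1 and TFAM. They were taken by gene symbol from a table that held 28061 genes after repeated gene IDs were dropped, and all 8 were found, each under 1 ID. The table covers skeletal muscle of pigs, of a breed the labels spell Landrance, at 27 stages with 3 libraries each, 81 libraries in all. Stage names were read as days of gestation (E) and days after birth (D). Before birth 15 stages, E33 to E105, gave 45 libraries, and after it 12 stages, D0 to D180, gave 36. All stages share breed and tissue, and the labels record no treatment or allele. No muscle, sex, litter or batch is named, nor is it stated that the 3 libraries at a stage are different animals, so p-values here reflect library-to-library spread that may be technical.

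PPARGC1A and PPARGC1B encode PGC-1 alpha and PGC-1 beta, which do not bind DNA themselves but are recruited by nuclear receptors and by NRF1 and raise transcription of nuclear genes for mitochondrial proteins. ESRRA and ESRRG encode estrogen-related receptors, which bind promoters of respiratory chain and tricarboxylic acid (TCA) cycle genes. PPARA and PPARD encode receptors activated by fatty acids that control fatty acid uptake and oxidation. NRF1, nuclear respiratory factor 1, activates respiratory chain genes and the gene for TFAM, which in turn packages, replicates and transcribes mitochondrial DNA. In mammals PGC-1 alpha is known as a coactivator induced by exercise and cold and as abundant in oxidative muscle, heart and brown fat.

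Levels are FPKM, the fragments of a gene divided by its transcript length and by the library's mapped total, so they are per length and can be set side by side between genes. Differences between stages were fitted by limma on log2(FPKM + 1), with 27 stage means and 54 residual degrees of freedom, over 14220 genes that reached 1 FPKM in at least 3 libraries. A gene was called where its Benjamini-Hochberg adjusted p fell below 0.05 and its log2 fold change was 1 or more in size, and the adjusted p alone served as a weaker rule. FPKM are shares of a library, and the median gene lay 0.55 log2 units lower after birth than before it. Median-ratio scaling, which divides each library by its typical ratio to the average library, brought that shift to -0.02, and values under it are given where they change a call or a sign, and for the main differences. The depth of the libraries relative to each other ranged from 0.612 to 1.27 times that of E33 replicate 1, with a median of 0.934 before birth and 0.782 after; absolute depth remained unknown.

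The tissue label was checked against 14 skeletal muscle markers, whose summed level was 3730 to 37700 FPKM before birth and 19790 to 83450 FPKM after it. None of the 14 was at 0 in every library. Markers of other tissues summed far lower for fat (10 genes, 9.89 to 501.3 FPKM over all libraries), endothelium (9 genes, 53.3 to 294.6) and leukocytes (10 genes, 9.01 to 505.8). The 7 cardiac muscle markers summed to 4.51 to 259.9 FPKM and the 7 liver markers to 10.6 to 298.3. The 8 fibroblast markers (1075 to 13450 FPKM) and the 8 erythroid markers (102.6 to 8835) were abundant, and fibroblast genes were highest before birth. In such bulk libraries fewer cells of a type and less RNA per cell cannot be told apart.

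PPARGC1A was a low-abundance transcript that rose through gestation. Its 3 libraries held 0.386, 0.216 and 0.256 FPKM at E33, the lowest stage, and 1.79, 1.69 and 1.68 FPKM at E85. The level then reached 2.06, 4.49 and 3.07 FPKM at E90 and 4.59, 3.65 and 3.07 FPKM at E105. All libraries from E90 to E105 lay above all libraries from E33 to E85. D0, the day of birth, gave the highest mean, 3.90 ± 1.90 FPKM (SD, n = 3), but its libraries stood at 5.88, 2.10 and 3.72 FPKM and overlapped those of every stage from E90 to E105. After birth the stage means declined unevenly to 0.446 ± 0.113 FPKM at D180, where the libraries held 0.512, 0.512 and 0.315 FPKM. D160 was scattered, with 0.780, 1.78 and 2.98 FPKM. Ordered by mean, no 2 neighbouring stages of PPARGC1A were separated by their libraries.

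PPARGC1B, the other PGC-1 coactivator, had its highest mean before birth. It held 1.58, 1.72 and 1.21 FPKM at E33 and stayed between 1.21 and 2.97 FPKM until E85. It climbed to 6.51, 5.85 and 7.26 FPKM at E100 and held 6.29, 4.38 and 5.91 FPKM at E105. At D0 the libraries held 1.60, 2.77 and 1.53 FPKM, all below every library of E95 to E105, so this coactivator was low at the stage where PPARGC1A was at its mean maximum. It stood at 3.28, 3.15 and 2.84 FPKM at D9, at 4.15, 2.85 and 3.76 FPKM at D30 and, at its lowest, at 0.433, 0.656 and 0.715 FPKM at D120. The E100 peak was 10.9 times the D120 mean, and its libraries lay above those of 25 of the 26 other stages.

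**Figure D1:**
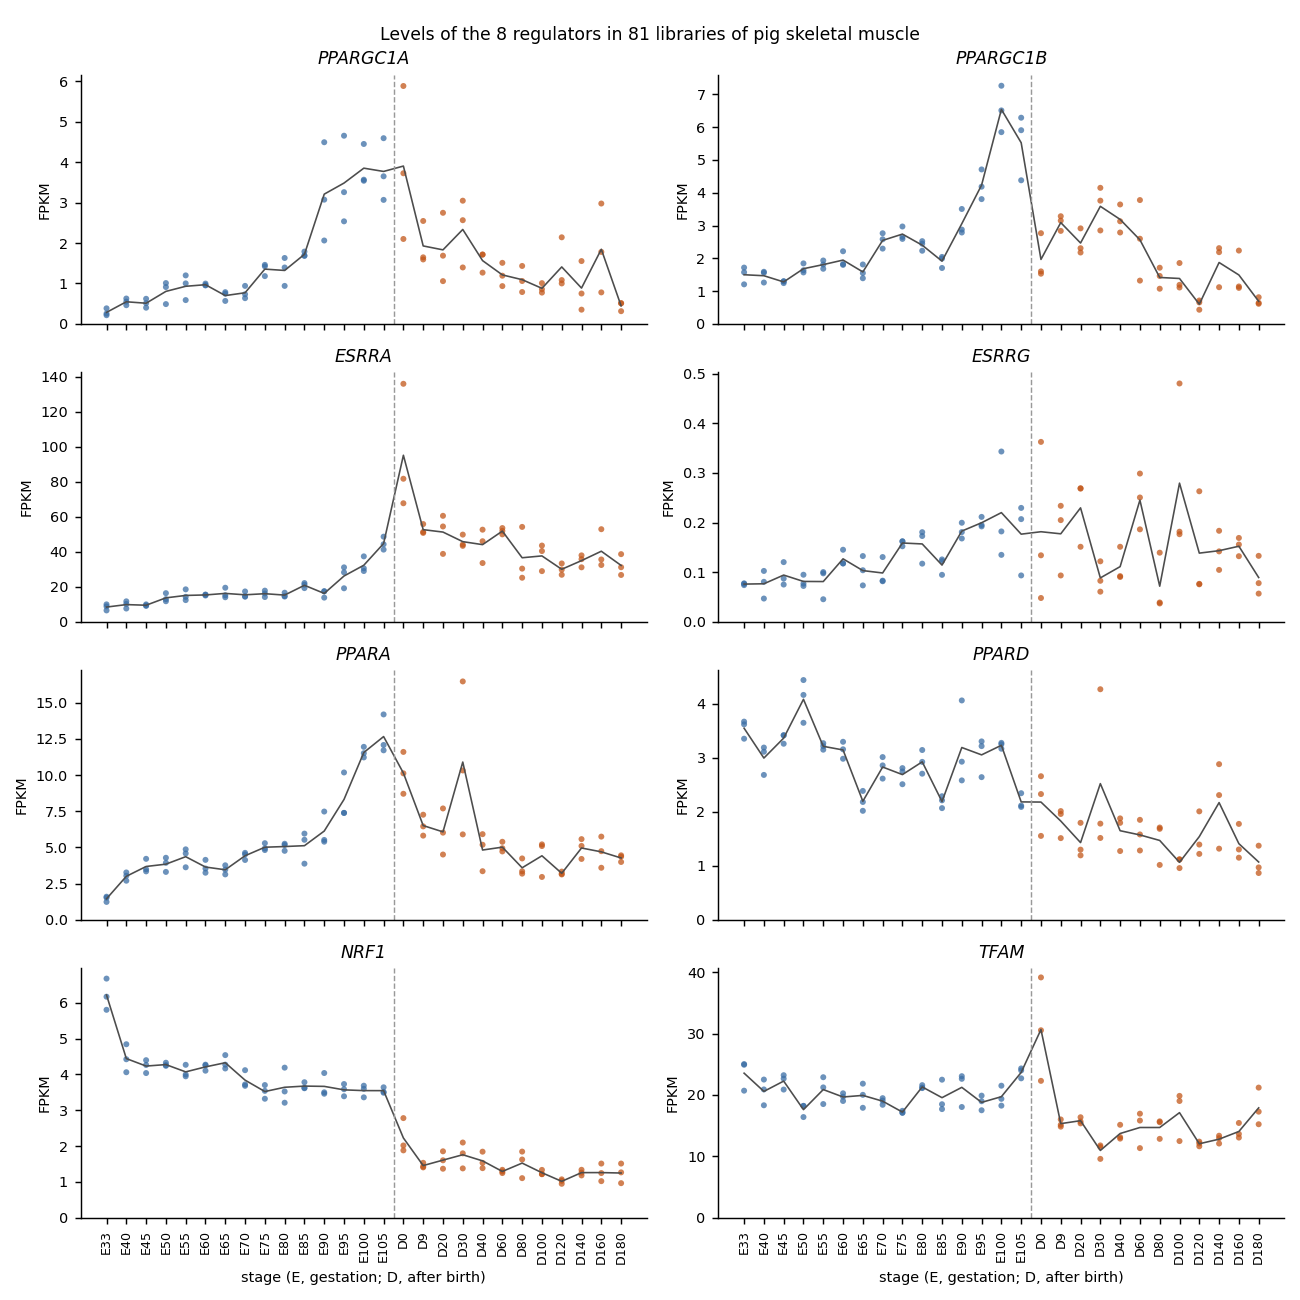
Level (FPKM, linear axis from 0, a scale of its own in each panel) of the 8 regulators at 27 stages of pig skeletal muscle; points are libraries (3 per stage, blue before birth and orange after it), lines join stage means, stages are evenly spaced and the dashed line marks birth. PPARGC1A, PPARGC1B, ESRRA and PPARA climb towards the end of gestation. ESRRA and TFAM have their highest mean at D0 (95.2 and 30.7 FPKM). On this deposited scale NRF1 steps down at birth (log2 fold change -0.51 for D0 against E105), less so under median-ratio scaling (-0.27).

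ESRRA, the receptor through which PGC-1 alpha drives many respiratory genes, was the most abundant of the 8 in 36 of 36 postnatal libraries and in 12 of 45 prenatal ones. It held 9.99, 8.84 and 6.54 FPKM at E33, 22.2, 19.3 and 21.2 FPKM at E85 and 44.3, 41.3 and 48.7 FPKM at E105. At D0 it reached 136.0, 81.8 and 67.8 FPKM, and all 3 values exceeded every library of every other stage. The D0 mean of 95.2 ± 36.1 FPKM (SD, n = 3) was 11.3 times the mean of E33. From D9 to D180 the libraries ranged between 25.2 FPKM, at D80, and 60.6 FPKM, at D20. The gaps that separated neighbours in that order were D0 above D9, E85 above E90 and E50 above E40.

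ESRRG, the receptor tied in mouse muscle to oxidative fibres and capillary growth, was close to the bottom of the measured range. It was above 0 in all 81 libraries but reached 1 FPKM in 0 of them, with a lowest, median and highest value of 0.0371, 0.131 and 0.480 FPKM. The early fetal libraries (E33 to E45) held 0.0470 to 0.120 FPKM and the late fetal ones (E95 to E105) 0.0936 to 0.343 FPKM, 2 ranges that overlap. ESRRG therefore stayed outside the 14220 genes tested. With all expressed genes fitted and no filter, over 27809 genes, limma gave it a late against early fetal difference of 0.15 ± 0.04 log2 units (SE, adjusted p = 4.4e-04), the size of which is limited by the pseudocount of 1. In each library ESRRA was 76.6 to 1700 times as abundant as ESRRG.

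PPARA, the receptor that controls mitochondrial and peroxisomal fatty acid oxidation, began at 1.53, 1.60 and 1.24 FPKM at E33. It had already reached 3.04, 2.70 and 3.27 FPKM at E40, a step whose libraries did not overlap. From E95 it rose steeply, to 11.5, 11.95 and 11.2 FPKM at E100 and 14.2, 11.7 and 12.1 FPKM at E105. D0 held 11.6, 10.1 and 8.71 FPKM and D9 held 5.82, 6.46 and 7.26 FPKM, with no overlap between them. A later high value at D30 rested on unequal libraries of 10.3, 5.90 and 16.5 FPKM, the last of which was the highest PPARA value in the series. All 36 postnatal libraries held at least 2.96 FPKM.

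PPARD, the receptor of the same family that is broadly expressed and raises oxidative capacity in mouse muscle, showed no such climb. Its libraries held 3.62, 3.67 and 3.35 FPKM at E33, 3.25, 3.17 and 3.27 FPKM at E100 and 2.34, 2.11 and 2.09 FPKM at E105. The highest mean fell at E50, 4.08 ± 0.402 FPKM (SD, n = 3), and the lowest at D100, 1.06 ± 0.0923 FPKM. At D30 its libraries held 1.78, 1.51 and 4.27 FPKM, so the library that was highest for PPARA was also highest for PPARD. Across the 27 stages no neighbours in the order of means were separated by their libraries.

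NRF1, a gene distinct from NFE2L1, which carries the same alias, was highest at the earliest stage and lowest after birth. E33 held 5.80, 6.17 and 6.67 FPKM, above all libraries of all other stages, and E40 held 4.42, 4.84 and 4.06 FPKM. From E75 to E105 stage means kept within 3.52 to 3.67 FPKM, and at E105 the libraries held 3.49, 3.51 and 3.64 FPKM. D0 held 2.78, 1.88 and 2.02 FPKM and D9 1.53, 1.41 and 1.43 FPKM. On the deposited scale all 45 prenatal libraries (3.21 to 6.67 FPKM) lay above all 36 postnatal ones (0.948 to 2.78 FPKM). Under median-ratio scaling the means were closer, 2.854 ± 0.392 at E80 and 2.331 ± 0.492 at D0 (SD, n = 3 each). The separation of single libraries was not examined on that scale.

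TFAM, the packaging and transcription factor of mitochondrial DNA, was the most abundant of the 8 in 33 of 45 prenatal libraries. On the deposited scale its highest stage mean was 2.80 times its lowest, the smallest such ratio of the 8. Under median-ratio scaling its means ran from 13.36 at E50 to 32.29 at D0. Those of PPARD ran from 1.418 at D100 to 3.123 at D30, a smaller ratio, so the ranking did not hold there. Prenatal libraries had a lowest, median and highest value of 16.4, 20.02 and 25.03 FPKM. At D0 they held 39.2, 22.3 and 30.5 FPKM, so libraries 1 and 3 exceeded every prenatal value and library 2 did not. D9 followed with 16.0, 14.8 and 15.1 FPKM, below all of D0. The lowest stage on the deposited scale was D30, with 11.8, 9.59 and 11.5 FPKM, and D180 held 17.3, 21.2 and 15.2 FPKM.

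All 7 regulators that could be tested differed between stages in limma's F test at an adjusted p below 0.05. So did 99.3% of the genes tested, so the count says nothing particular about the regulators.

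Late fetal muscle (E95, E100 and E105) was then compared with early fetal muscle (E33, E40 and E45), 9 libraries each. Of the 7 regulators, 4 were called higher and 0 lower, against a background of 6.07% of genes called higher and 9.32% called lower. The 4 were both coactivators, ESRRA and PPARA. PPARGC1A had a lowest, median and highest value of 0.216, 0.463 and 0.628 FPKM in the early and 2.54, 3.57 and 4.65 FPKM in the late group, without overlap. The log2 fold change was 1.69 ± 0.13 (SE, adjusted p = 4.7e-18), and all 9 late libraries exceeded all 9 early ones. PPARGC1B went from 1.21, 1.303 and 1.72 FPKM to 3.81, 5.85 and 7.26 FPKM, again without overlap, with a log2 fold change of 1.39 ± 0.09 (adjusted p = 1.1e-20). PPARGC1B stayed the more abundant transcript.

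Among the receptors, ESRRA rose between the same groups from 6.54, 9.40 and 11.7 FPKM to 19.2, 31.1 and 48.7 FPKM, by 1.75 ± 0.12 log2 units (adjusted p = 2.0e-20). PPARA rose from 1.24, 3.04 and 4.21 FPKM to 7.39, 11.5 and 14.2 FPKM, by 1.70 ± 0.10 log2 units (adjusted p = 3.0e-22). Neither pair of groups overlapped. Adding 1 FPKM compresses these values, and with a pseudocount of 0.1 the log2 fold changes were 2.82 for PPARGC1A, 2.03 for PPARA and 1.85 for both PPARGC1B and ESRRA, all 4 still called. The order of the 4 therefore depends on the pseudocount. PPARD did not pass the adjusted p (log2 fold change -0.18 ± 0.09, adjusted p = 0.0653), and its groups overlapped, at 2.68, 3.35 and 3.67 FPKM early and 2.09, 3.17 and 3.30 FPKM late. NRF1 passed the adjusted p but not the fold minimum, with a log2 fold change of -0.37 ± 0.05 (adjusted p = 1.0e-08) and no overlap between its groups. By the adjusted p alone, genes past the fold minimum included, 51% of genes were lower and 24.4% higher. With median ratios NRF1 was at -0.19 and PPARD at -0.02. TFAM had 18.3, 22.5 and 25.03 FPKM early and 17.5, 19.9 and 24.3 FPKM late, which overlap, and differed by -0.09 ± 0.08 (adjusted p = 0.262), and by 0.11 under median-ratio scaling (adjusted p = 0.261). Under median-ratio scaling the same 4 were called higher, where 6.94% of genes were higher and 5.8% lower, with log2 fold changes of 1.61, 1.43, 1.92 and 1.77 for PPARGC1A, PPARGC1B, ESRRA and PPARA.

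Several cell type markers moved between the same stages. The skeletal muscle marker sum was 3730 to 8678 FPKM in the early and 20080 to 37700 FPKM in the late group, without overlap. The endothelial sum rose from 53.3 to 134.6 FPKM to 227.3 to 294.6 FPKM. The adipocyte sum rose from 9.89 to 17.4 FPKM to 84.0 to 213.2 FPKM. The fibroblast sums overlapped, with medians of 9727 FPKM early and 6655 FPKM late. Of 8 fibroblast genes 3 were called lower and 1 higher, against 9.32% and 6.07% of all genes. With median ratios 2 were called lower and 1 higher, against 5.8% and 6.94%. The part of these shifts in the regulators' changes was not tested.

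**Figure D2:**
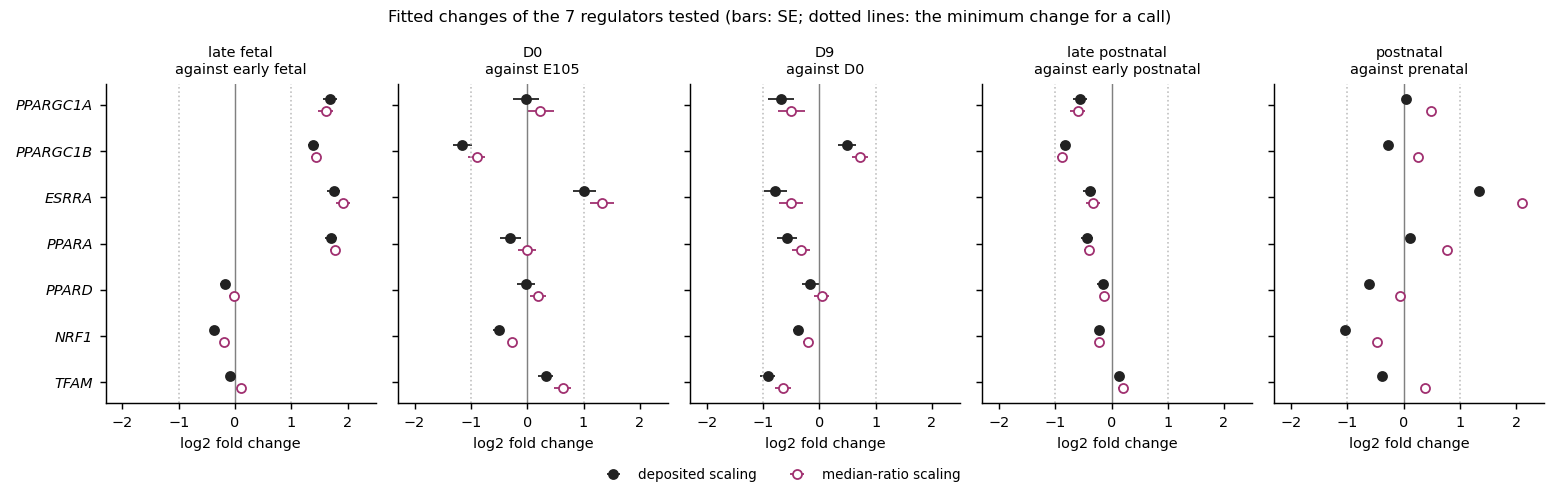
Fitted log2 fold change (horizontal axis, log2(FPKM + 1) units) of the 7 regulators tested in 5 comparisons; filled points are the deposited scaling, open points median-ratio scaling, bars the SE and dotted lines the minimum size for a call. The 4 calls between early and late gestation hold under both scalings, whereas the postnatal against prenatal difference of PPARGC1B and TFAM has opposite signs under the 2 scalings.

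Around birth, D0 was compared with E105, 3 libraries each, which addresses the change from the last fetal stage sampled to the day of birth. ESRRA was called higher and PPARGC1B lower, where 2.78% of genes were called higher and 9.38% lower (with median ratios 5.39% and 5.65%). ESRRA, at 44.3, 41.3 and 48.7 FPKM before and 136.0, 81.8 and 67.8 FPKM at D0, did not overlap and changed by 1.01 ± 0.20 log2 units (adjusted p = 3.4e-05). This is close to the fold minimum, and the change was 0.72 without D0 replicate 1 and 0.96 without E105 replicate 2, with the adjusted p below 0.05 both times. PPARGC1B did not overlap either and fell by 1.15 ± 0.16 log2 units (adjusted p = 1.8e-08), or by 0.90 under median-ratio scaling (adjusted p = 9.2e-07), below the fold minimum.

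TFAM and NRF1 passed the adjusted p alone at this step, in opposite directions. TFAM was higher by 0.33 ± 0.13 log2 units (adjusted p = 0.0319), or 0.63 under median-ratio scaling, and its groups overlapped through D0 library 2. That difference rested on few libraries. Leaving out 1 library of the 2 stages at a time gave 0.14 to 0.53, lowest without D0 replicate 1 (adjusted p = 0.431), and of these 6 fits only the one without D0 replicate 2 kept the adjusted p below 0.05. With the libraries of E105 and D0 alone in the fit the adjusted p was 0.244. NRF1 was lower by 0.51 ± 0.09 log2 units (log2 fold change -0.51, adjusted p = 6.6e-06), without overlap on the deposited scale. It was at -0.27 under median-ratio scaling, but under quantile normalisation it was at -0.14 and did not pass (adjusted p = 0.141). By that rule 14.1% of genes were higher and 39.2% lower. PPARGC1A (-0.02 ± 0.22, adjusted p = 0.946), PPARA (-0.30 ± 0.18, adjusted p = 0.163) and PPARD (-0.02 ± 0.16, adjusted p = 0.944) did not pass, and with an SE of 0.22 a moderate change of PPARGC1A could not be detected.

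From D0 to D9 no regulator was called by limma, where 4.99% of genes were called higher and 5.44% lower (with median ratios 7.55% and 2.64%), although 6 of the 7 had an unadjusted p below 0.05 and all 6 passed the adjusted p. By the adjusted p alone 5 were lower at D9 and 1 higher, against 36.4% and 15.5% of genes. TFAM showed the biggest of these differences, -0.92 ± 0.13 log2 units (adjusted p = 3.6e-08), and without D0 replicate 2 it was -1.12 and called. ESRRA differed by -0.78 ± 0.20 (adjusted p = 0.0011), NRF1 by -0.38 ± 0.09 (adjusted p = 4.4e-04), PPARGC1A by -0.68 ± 0.22 (adjusted p = 0.00845) and PPARA by -0.57 ± 0.18 (adjusted p = 0.00698). Under median-ratio scaling PPARGC1A and PPARA no longer passed (adjusted p = 0.0781 and 0.0932), and TFAM was at -0.65, ESRRA at -0.50 (adjusted p = 0.0489) and NRF1 at -0.21. PPARGC1B alone was higher at D9, by 0.49 ± 0.16 log2 units (adjusted p = 0.00887), and by 0.72 under median-ratio scaling. Without D0 replicate 1, ESRRA (-0.49), PPARGC1A (-0.40), PPARA (-0.47) and PPARGC1B (0.40) missed the adjusted p, and PPARGC1B (0.38) missed it without D0 replicate 3. With the libraries of D0 and D9 alone in the fit, ESRRA, NRF1 and both coactivators missed it (adjusted p = 0.0548, 0.0813, 0.129 for PPARGC1A and 0.0904 for PPARGC1B). Both comparisons share the D0 libraries, so a high D0 value lifts one and lowers the other.

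D0 also stood apart in its cell type markers. The endothelial sum was 83.7, 85.3 and 98.8 FPKM at D0 against 282.6 to 294.6 FPKM at E105 and 143.0 to 167.0 FPKM at D9. The erythroid sum was 321.3 to 394.2 FPKM at D0, 2382 to 3448 FPKM at E105 and 1553 to 2298 FPKM at D9. The fibroblast sum was uneven at D0, with 1722, 2057 and 7168 FPKM in the 3 libraries, and the skeletal muscle sum was 19790 to 30930 FPKM against 56860 to 61270 FPKM at D9. The part of these differences in the regulators' values was not tested.

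Between early postnatal muscle (D20, D30 and D40) and late postnatal muscle (D140, D160 and D180), 9 libraries each, no regulator was called by limma. The background was low as well, 0.788% of genes higher and 1.49% lower. By the adjusted p alone 5 of the 7 were lower late, against 27% of genes, and 0 higher, against 18.2%, and the same 5 had an unadjusted p below 0.05. PPARGC1B went from 2.18, 2.91 and 4.15 FPKM (lowest, median and highest) to 0.614, 1.12 and 2.31 FPKM, with a small overlap and a log2 fold change of -0.83 ± 0.09 (adjusted p = 5.5e-11). PPARGC1A went from 1.06, 1.71 and 3.05 FPKM to 0.315, 0.752 and 2.98 FPKM, with a log2 fold change of -0.56 ± 0.13 (adjusted p = 2.9e-04). The highest values of the late PPARGC1A group came from D160. Both coactivators are low enough for the pseudocount to matter: with 0.1 in place of 1 the log2 fold changes were -1.25 for PPARGC1B and -1.04 for PPARGC1A, and both were called.

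The remaining postnatal differences were smaller. PPARA changed by -0.44 ± 0.10 log2 units (adjusted p = 4.1e-04), ESRRA by -0.39 ± 0.12 (adjusted p = 0.00567) and NRF1 by -0.23 ± 0.05 (adjusted p = 3.2e-04), and in each the 2 groups overlapped. PPARD (-0.16 ± 0.09, adjusted p = 0.152) and TFAM (0.13 ± 0.08, adjusted p = 0.147) did not pass. TFAM passed under median-ratio scaling, at 0.20 ± 0.08 log2 units (adjusted p = 0.0445). The adipocyte marker sum was 219.7 to 359.6 FPKM early and 339.2 to 501.3 FPKM late, and the endothelial sum 127.6 to 201.8 FPKM early and 80.1 to 175.5 FPKM late. Of the tested markers 3 of 9 adipocyte genes were called higher and 0 of 9 endothelial genes were called. The erythroid sum was 297.2 to 2258 FPKM early and 147.5 to 640.5 FPKM late, with 4 of 7 genes called lower, and the liver sum 37.6 to 109.6 FPKM and 18.2 to 53.6 FPKM, with 2 of 7 called lower. Their part in these differences was not tested.

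Over the 26 steps between adjacent stages, 2 of 182 regulator and step pairs were called, both at birth, as were 1.65% of all gene and step pairs. By the adjusted p alone 24 of the 182 passed, against 10.5% of all pairs, and 10 of the 24 used the D0 libraries. Before birth 3 passed: PPARA rose by 0.71 ± 0.18 log2 units and NRF1 was lower by 0.41 (log2 fold change -0.41 ± 0.09) from E33 to E40, and PPARGC1B rose by 0.47 ± 0.16 from E85 to E90. With median ratios the PPARGC1B step was 0.36 and did not pass (adjusted p = 0.107). No single step of the late gestation climb passed for PPARGC1A, ESRRA or PPARA. After D9, PPARA went up by 0.67 ± 0.18 from D20 to D30 and changed by -0.96 ± 0.18 from D30 to D40, steps that share the unequal D30 libraries. PPARGC1B changed by -0.57 ± 0.16 from D100 to D120 and 0.82 ± 0.16 from D120 to D140, steps that share the D120 libraries. PPARGC1A changed by -0.90 ± 0.22 from D160 to D180, which under median-ratio scaling was -1.04 and called. Also passing were TFAM (-0.50) and PPARD (0.46) from D20 to D30, and ESRRA (-0.57) and PPARGC1B (-0.51) from D60 to D80. So did TFAM (-0.45) from D100 to D120, though not with median ratios (adjusted p = 0.333), and PPARGC1B (-0.53) from D160 to D180.

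Across the whole series, the mean of the 12 postnatal stages was set against the mean of the 15 prenatal stages. ESRRA was called higher and NRF1 lower, against a background of 4.02% of genes called higher and 22.6% lower (with median ratios 10.5% and 6.5%). ESRRA changed by 1.33 ± 0.06 log2 units (adjusted p = 2.9e-31), from a prenatal lowest, median and highest value of 6.54, 15.5 and 48.7 FPKM to 25.2, 43.5 and 136.0 FPKM, and the ranges overlapped through the late fetal libraries. NRF1 changed by -1.04 ± 0.03 log2 units (adjusted p = 1.3e-43), without overlap between the 2 sets of libraries on the deposited scale. Under median-ratio scaling ESRRA rose by 2.11, while the NRF1 difference shrank to -0.48 and was no longer called, with an adjusted p of 2.7e-30. The median gene stood at -0.55 on the deposited scale, as given above.

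By the adjusted p alone 2 regulators were higher and 4 lower, against 17.4% and 76.4% of genes, while with median ratios 5 were higher and 1 was lower, against 43.3% and 46.1%. The direction of 2 regulators depended on the scaling. PPARGC1B differed by -0.27 ± 0.04 log2 units on the deposited scale and by 0.25 under median-ratio scaling, and TFAM by -0.39 ± 0.04 and 0.38, and each passed the adjusted p under both. PPARD differed by -0.61 ± 0.04, and by -0.06 with median-ratio scaling (adjusted p = 0.136). PPARA differed by 0.11 ± 0.05 and 0.77, the former falling to 0.03 without the 3 libraries of D0 (adjusted p = 0.517), and PPARGC1A by 0.05 ± 0.06 (adjusted p = 0.394) and 0.49. The mean level of PPARGC1A was 1.615 ± 1.32 FPKM before birth (SD, n = 45) and 1.61 ± 1.09 FPKM after it (n = 36), averages over the rise and the decline described above. Cell type markers differed across birth as well, with 10 of 14 skeletal muscle markers called higher and 3 lower (median log2 fold change 1.54) and 6 of 9 adipocyte markers called higher (1.97). Of fibroblast markers 8 of 8 were called lower (-1.49), and of erythroid markers 5 of 7 (-1.75). With median ratios 1 of 8 fibroblast markers (-0.68) and 4 of 7 erythroid markers (-1.13) were called lower. Skeletal muscle markers then gave 11 higher and 2 lower, and adipocyte markers 7 higher. All genes gave 4.02% higher and 22.6% lower on the deposited scale, and 10.5% and 6.5% with median ratios. The part of these marker differences in the regulators' differences was not tested.

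Ratios of related regulators within a library do not change when the whole library is divided by 1 factor, as in median-ratio scaling. Quantile normalisation can change them, and they were not computed under it. The PPARGC1A to PPARGC1B ratio rose from 0.126 to 0.245 at E33 to 0.519 to 0.833 at E105, and it exceeded 1 in 2 of 45 prenatal and 6 of 36 postnatal libraries. Of the 6, 2 were D0 libraries (ratios of 0.759, 2.43 and 3.67 at D0) and 3 were all the libraries of D120 (1.52, 2.31 and 3.26). PGC-1 beta transcripts were thus the more abundant of the pair at most stages. The PPARA to PPARD ratio was below 1 in all libraries of E33 (0.369 to 0.436), 5.54 to 6.06 at E105 and above 1 in 36 of 36 postnatal libraries. The PPARA to PPARD ratio was already 0.869 to 1.22 at E40 and 1.11 to 1.55 at E55, and it exceeded 1 in 37 of 45 prenatal libraries. The balance between these receptor transcripts thus lay with PPARD at E33 and turned to PPARA early in the sampled gestation.

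**Figure D3:**
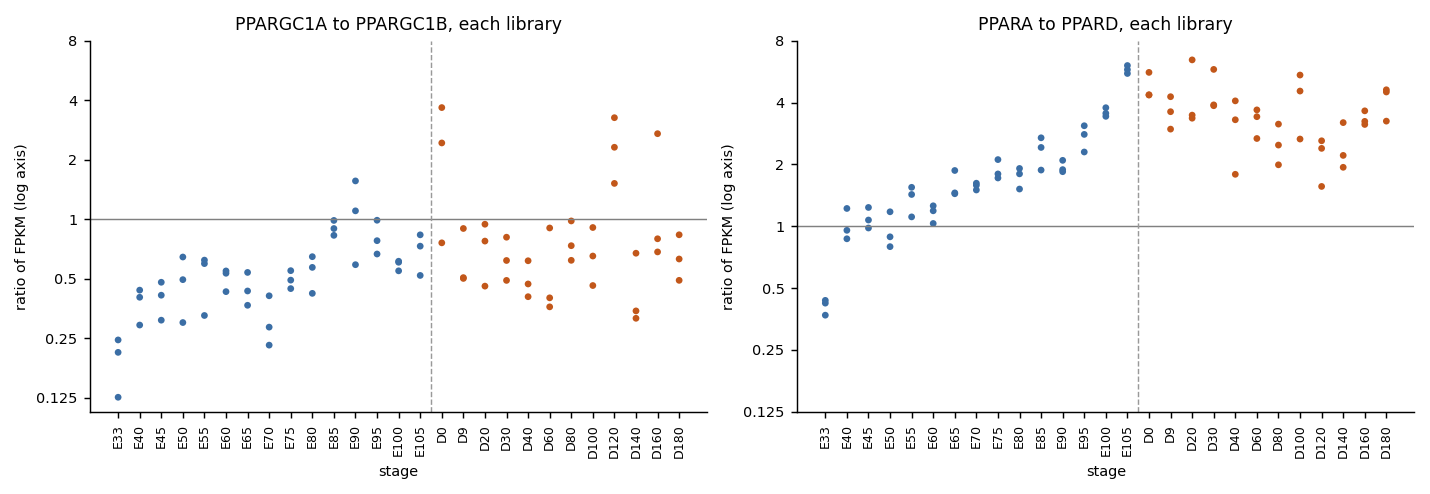
Ratio of FPKM of PPARGC1A to PPARGC1B (left) and of PPARA to PPARD (right) in each library (log axes), by stage; points are libraries, 3 per stage, blue before birth and orange after it. The PPARA to PPARD ratio climbs from 0.369 to 0.436 at E33 to 5.54 to 6.06 at E105 and stays above 1 after birth, whereas the coactivator ratio exceeds 1 in 8 of the 81 libraries.

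Stage means of the 7 tested regulators were compared by Pearson's r, as a description, since stages share tissue and scaling. Over the 15 prenatal stages PPARGC1A, PPARGC1B, ESRRA and PPARA tracked each other, with r between 0.88 and 0.93 for all 6 pairs, and between 0.89 and 0.95 under median-ratio scaling. NRF1 ran opposite to these 4 before birth, with r from -0.83 with PPARA to -0.63 with PPARGC1B. Over the 12 postnatal stages r between NRF1 and the same 4 was 0.59 to 0.83, and without D0 it was 0.55 to 0.81. With median ratios the 2 ranges were -0.74 to -0.58 before birth and 0.58 to 0.60 after it. TFAM showed r between -0.06 and -0.02 with the 4 before birth, but 0.45 to 0.51 under median-ratio scaling. After birth its r of 0.67 with ESRRA rested on D0, without which it was 0.02.

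**Figure D4:**
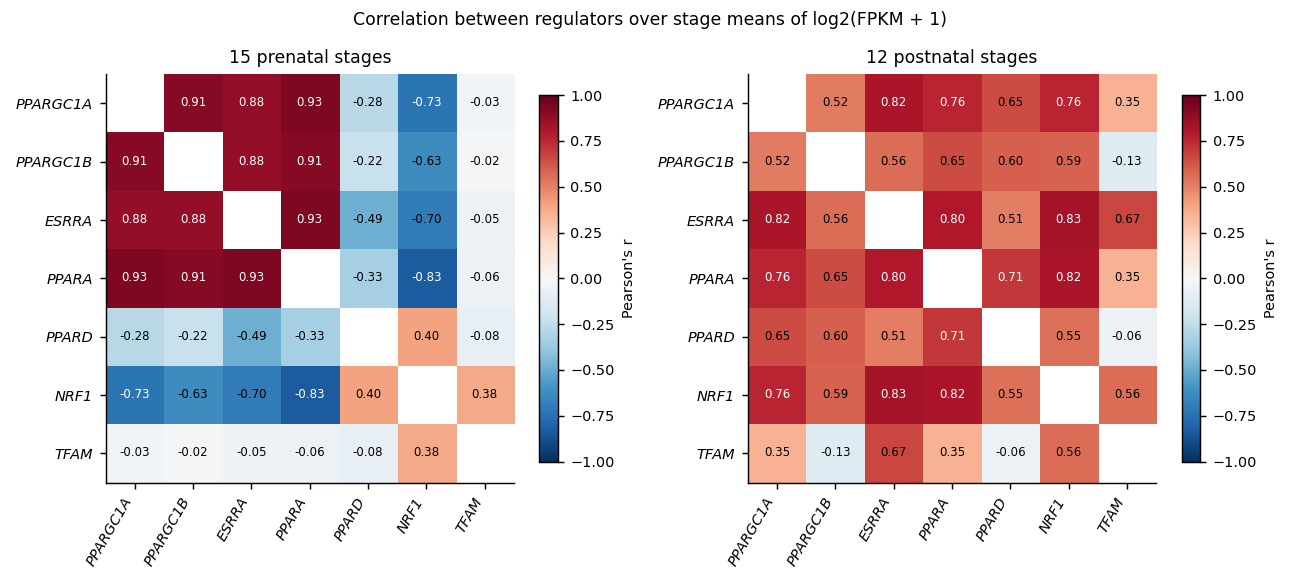
Pearson's r between stage means of log2(FPKM + 1) for each pair of the 7 regulators tested, over 15 prenatal stages (left) and 12 postnatal stages (right); colour runs from -1 (blue) to 1 (red). PPARGC1A, PPARGC1B, ESRRA and PPARA form a block of 0.88 to 0.93 before birth, and NRF1 is negative with all 4 before birth and positive after it.

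For each regulator the 3 genes with the most similar course over the 27 stages were looked up among all genes tested. ESRRA was followed most closely by IDH3A, a subunit of the TCA cycle enzyme isocitrate dehydrogenase (r = 0.974), MPC2, a subunit of the mitochondrial pyruvate carrier (r = 0.969), and SLC25A4, the mitochondrial ADP/ATP carrier of muscle (r = 0.966). Under median-ratio scaling IDH3A and MPC2 remained the closest, at 0.987 and 0.985, and NDUFB10, a complex I subunit, was next at 0.981. IDH3A itself stood at 16.9 ± 2.55 FPKM in the early fetal libraries (SD, n = 9), 68.5 ± 6.08 at E105 and 144 ± 9.80 at D0 (n = 3 each).

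TFAM was closest to RAB18 (0.950), a small GTPase, ZNF330 (0.942) and TMA16 (0.939), and under median-ratio scaling to PNPT1 (0.926), the mitochondrial polynucleotide phosphorylase, UTP11 (0.923) and TOMM70 (0.919), a mitochondrial import receptor. NRF1 was closest to LOC100737142 (0.991), SLC23A2 (0.990), a vitamin C transporter, and SMG6 (0.988), a nonsense-mediated decay endonuclease. PPARGC1A and PPARA shared their closest entry, XLOC_143388, an unannotated locus (0.935 and 0.931). PPARGC1A was next closest to XLOC_384152 (0.893) and to the phosphodiesterase PDE7B (0.891), and PPARA to CCDC107 (0.907) and the lysophospholipase PNPLA7 (0.903). Under median-ratio scaling XLOC_143388 stayed closest to PPARGC1A (0.929), but CCDC107 (0.949) was closest to PPARA. PPARGC1B was closest to BAIAP2 (0.894), RAPGEF3 (0.878), a cAMP-activated exchange factor, and PNPLA7 (0.878). With median ratios these had r of 0.856, 0.829 and 0.827, and ARAP3 (0.912), CARD10 (0.903) and JCAD (0.893) were closest instead. PPARD was closest to CIC (0.945), LOC110255990 (0.945) and INTS3 (0.943), whose r of 0.752, 0.549 and 0.769 under median-ratio scaling was lower for all 3.

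The wider pathway was read from 7 lists of other genes. PERM1, a muscle protein induced by PGC-1 and ESRRA, was 1 of 31 partner genes. It stood at 0.187 ± 0.117 FPKM in early fetal libraries (SD, n = 9) and 9.41 ± 3.71 FPKM in late fetal ones, 3.07 ± 0.13 log2 units higher (adjusted p = 9.9e-30). Beside it, 1 other partner was called higher, TFEB, a lysosomal and metabolic transcription factor (2.47 ± 0.08, adjusted p = 2.7e-35), and 1 lower, the retinoid X receptor RXRG (-1.97 ± 0.17, adjusted p = 1.5e-15). Thus 2 of the 31 partners were called higher and 1 lower, against 6.07% and 9.32% of all genes. The median partner changed by -0.01 log2 units, against -0.19 for all genes. Of the partners, 0 were called at D0 against E105, where 2.78% of all genes were called higher and 9.38% lower. In limma 11 of the 31 had an unadjusted p below 0.05 there. By the adjusted p alone 2 were higher and 7 lower, against 14.1% and 39.2% of all genes. After birth against before, PERM1 was called higher (2.79 ± 0.06), and the corepressor subunit HDAC3 (-1.3 ± 0.03) and the coactivator NCOA1 (-1.15 ± 0.04) were called lower on the deposited scale but not under median-ratio scaling.

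A list of 28 genes was drawn up for energy and calcium sensing upstream of PGC-1, but it also holds VEGFA, a target of PGC-1 alpha, and LPIN1, a coactivator, which its name does not describe. Between early and late gestation 7 of the 28 were called higher and 0 lower, against 6.07% and 9.32% of all genes. The 7 included VEGFA, an angiogenic growth factor (2.72 ± 0.14, adjusted p = 8.4e-26), PRKAA2, the muscle catalytic subunit of AMP-activated kinase (2.17 ± 0.09), CAMK2B, a calcium-dependent kinase (1.77 ± 0.08), and MAPK12, the muscle p38 gamma kinase (1.66 ± 0.10). At D0 against E105, where 2.78% of all genes were called higher and 9.38% lower, a single one was called. It was LPIN1, a lipid phosphatase that also acts with PGC-1 alpha, which went from 0.705 ± 0.145 to 7.22 ± 0.475 FPKM (2.27 ± 0.18, adjusted p = 2.1e-16). Late after birth, while the coactivators were lower by the adjusted p, 4 of the 28 were called higher and 0 lower, against 0.788% and 1.49% of all genes. The 4 were the calcineurin subunits PPP3R1 (1.37 ± 0.08) and PPP3CB (1.23 ± 0.13) and the kinase subunits PRKAG3 (1.23 ± 0.17) and PRKAA2 (1.19 ± 0.09). The median of the list changed by -0.03 log2 units there, as against -0.05 for all genes.

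Respiratory chain, TCA cycle and fatty acid genes, the pathways on which the receptors are described above as acting, moved in larger numbers. Whether the regulators drove these changes was not tested. Like the other lists, these were chosen with earlier results of these data known, so their counts are not independent of those results. Between early and late gestation 6.07% of all genes were called higher and 9.32% lower. Of 40 oxidative phosphorylation and TCA cycle genes, 21 were called higher and 0 lower there, with a median of 1.04 log2 units, and of 26 fatty acid genes 15 were called higher and 0 lower, with a median of 1.14, beside -0.19 for all genes tested. The muscle isoform of a cytochrome oxidase subunit, COX7A1, led the former (4.81 ± 0.14, adjusted p = 6.7e-39), followed by NDUFS7 of complex I (1.79 ± 0.11), cytochrome c, CYCS (1.75 ± 0.11), and IDH3A (1.56 ± 0.09). ACSL1, which activates fatty acids (3.07 ± 0.12), CPT1B, which admits them to mitochondria (2.91 ± 0.12), PDK4, which restrains pyruvate oxidation (2.58 ± 0.48), and CD36, a fatty acid transporter (2.57 ± 0.10), led the latter.

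At birth the fatty acid list had 8 of 26 called higher and 0 lower, against 2.78% and 9.38% of all genes, and 12 and 0 with median ratios. It included PDK4 at 14.8 ± 5.51 FPKM at E105 and 960 ± 563 FPKM at D0 (5.75 ± 0.84, adjusted p = 4.8e-08). UCP3, an uncoupling protein homologue (1.89 ± 0.47), PLIN2, a lipid droplet protein (1.87 ± 0.26), and FABP3, a fatty acid binding protein (1.74 ± 0.33), followed. Late after birth, where 0.788% of all genes were called higher and 1.49% lower, 8 of the 26 were called lower and 0 higher. With median ratios 7 were called lower and 0 higher. Among the 8 were PDK4 (-3.61 ± 0.48), MLYCD, which breaks down malonyl-CoA (-1.87 ± 0.15), CPT1B (-1.77 ± 0.12) and UCP3 (-1.67 ± 0.27). The oxidative list had 4 of 40 called lower and 0 higher there, but 2 and 0 with median ratios. The 4 lay near the fold minimum: NDUFV1 of complex I (-1.12 ± 0.09), COX4I1 (-1.11 ± 0.09), COX7A1 (-1.03 ± 0.14) and NDUFA10 (-1.0 ± 0.09). The median of the oxidative list was -0.61 log2 units, and that of the fatty acid list -0.73, beside -0.05 for all genes tested.

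Among the genes that maintain and transcribe mitochondrial DNA, where TFAM acts, few were called. Of 23 genes, 0 were called between early and late gestation, where 6.07% of all genes were called higher and 9.32% lower. In limma 16 had an unadjusted p below 0.05, and the median was -0.03 log2 units. By the adjusted p alone 8 were higher and 8 lower, against 24.4% and 51% of all genes. From D0 to D9, 20 of the 23 were lower by the adjusted p, against 36.4% of all genes, and 3 were called lower, against 5.44%. Under median-ratio scaling 8 were lower by the adjusted p, against 22.7% of all genes, and 2 were called lower, against 2.64%. The 3 called on the deposited scale were LRPPRC, which stabilises mitochondrial messenger RNA (-1.37 ± 0.12, adjusted p = 1.9e-14), ELAC2, a transfer RNA processing enzyme (-1.27 ± 0.17), and PNPT1 (-1.08 ± 0.12). MGME1, a nuclease of mitochondrial DNA replication, was an exception, called lower at D0 (-1.66 ± 0.22, adjusted p = 4.5e-09).

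Of 21 import genes, 3 were called higher and 0 lower at D0 against E105, or 7 and 0 with median ratios, where 2.78% of all genes were called higher on the deposited scale. At D9 against D0, 7 were called lower and 0 higher, or 4 and 0 with median ratios, against 5.44% of all genes called lower on the deposited scale. The chaperone HSPD1 held 74.3 ± 9.78 FPKM at E105, 304 ± 64.7 at D0 and 87.2 ± 8.32 at D9 (SD, n = 3 each). Its log2 fold changes were 2.0 ± 0.16 and -1.77 ± 0.16 (adjusted p = 1.4e-15 and 1.7e-13). The import motor HSPA9 (1.97 ± 0.16 and -1.95 ± 0.16) and the import channel TOMM40 (1.25 ± 0.15 and -1.58 ± 0.15) followed the same course, and HSPE1 fell at D9 (-1.3 ± 0.19). The summed level of the 21 was 1240 to 1278 FPKM at E105, 2106 to 2437 FPKM at D0 and 1093 to 1146 FPKM at D9. Of 12 fusion and fission genes 1 was called at D0 against E105, MTFP1, an inner membrane fission protein, which was higher (1.97 ± 0.17, adjusted p = 8.0e-15). Between early and late gestation 1 was called, MIEF2, a fission adaptor, which was higher (1.64 ± 0.10). All genes gave 2.78% and 6.07% called higher in these 2 comparisons. With median ratios 2 of the 12 were called higher in each, against 5.39% and 6.94% of all genes.

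**Figure D5:**
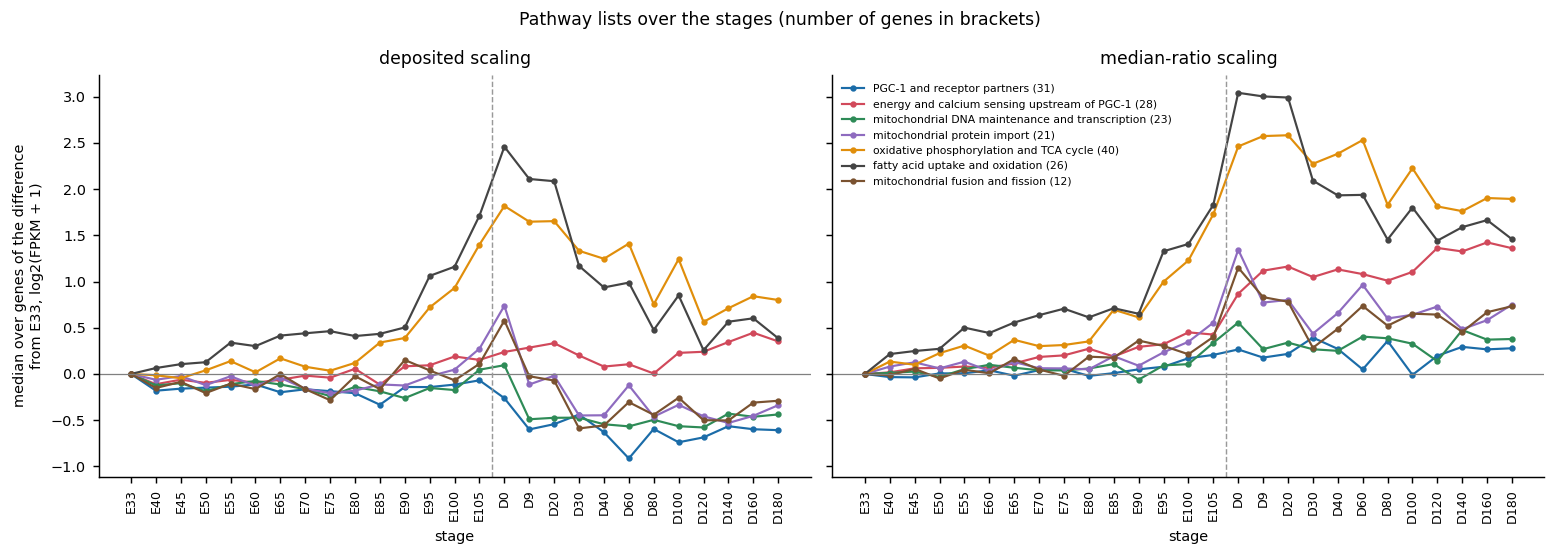
Median over the genes of each list of the difference from E33 in stage mean log2(FPKM + 1), by stage, under the deposited scaling (left) and median-ratio scaling (right); numbers of genes are in brackets and the dashed line marks birth. The fatty acid and oxidative lists climb late in gestation and reach 2.46 and 1.82 log2 units at D0 on the deposited scale, the median of the import list has its maximum at D0, and levels after birth are higher under median-ratio scaling.

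The postnatal against prenatal counts depended on scaling for all 7 lists. On the deposited scale 14 of 40 oxidative genes were called higher and 1 lower, and under median-ratio scaling 35 and 0. For fatty acid genes the counts were 7 and 0 against 17 and 0, and for upstream genes 6 and 4 against 13 and 1. Partner genes gave 1 and 2 against 3 and 0, import genes 1 and 0 against 4 and 0, fusion and fission genes 2 and 1 against 3 and 0, and maintenance genes 0 and 1 against 1 and 0. All genes gave 4.02% higher and 22.6% lower on the deposited scale and 10.5% and 6.5% with median ratios, so on the deposited scale the shares of partner and import genes called higher lay near that of all genes. Without the 3 libraries of D0 the oxidative count was 13 and 1 and the fatty acid count 7 and 0 on the deposited scale.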

How the data were processed

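Per the labels' protocols, total RNA was depleted of ribosomal RNA and sequenced from strand-specific libraries. The authors deposited 1 table of FPKM for 28325 entries, which they scaled to the length of the transcript and the size of the library. The submitters' processing notes list Trimmomatic, the aligner HISAT2 (2.0.4) and the assembler StringTie (1.3.1), without settings. The genome build was not given in the sources used here, and neither coordinates nor sequences are printed. The 264 entries that repeat a gene ID were dropped. Stages were taken from the labels.

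limma 3.58.1 in R 4.3.3 was run on log2(FPKM + 1) with a variance trend, a mean for each stage and two-sided contrasts, with Benjamini-Hochberg adjustment over the 14220 genes tested, and was tested on simulated data. A further 13841 genes were below the filter. No table of counts was used. Relative depth was read from the commonest ratio of low genes between libraries, at which 11 to 69 genes coincided against at most 5 at an arbitrary ratio. At most 1.81% of low genes did so, whole reads were not recovered, absolute depth is unknown, and no counting interval is given.

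The 8 regulators and the gene lists were chosen with earlier results of these data known. Named genes are the 8 regulators, up to 4 genes per list, comparison and direction with the largest called change, and the 3 genes nearest each regulator over the stages; the text gives the ones its comparisons turn on. Of 183 pathway symbols 181 were matched. Alternatives were another pseudocount, no filter, median-ratio and quantile scaling, leaving out D0 or each library, and a replicate block. List counts without D0 were added after seeing the data.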

Additional observations from a re-analysis of the deposited data

How the results depend on the processing

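With a pseudocount of 0.1 the number of genes called rose from 3781 to 6639 for postnatal against prenatal, from 2188 to 3726 for late against early fetal, from 1729 to 3531 for D0 against E105, from 1482 to 2775 for D9 against D0, from 324 to 898 for late against early postnatal and from 6093 to 13100 over the 26 steps; a smaller pseudocount enlarges the differences of low values. Median-ratio scaling called 2411 genes and quantile normalisation 2211 for postnatal against prenatal. Of the regulators' log2 fold changes under settings other than leaving out a library, 266 kept direction and call and 14 changed sign. Under median-ratio scaling these were PPARGC1B 0.25 and TFAM 0.38 (postnatal against prenatal), TFAM 0.11 (late against early fetal), PPARGC1A 0.23 and PPARD 0.19 (D0 against E105) and PPARD 0.04 (D9 against D0). Under quantile normalisation they were PPARGC1B 0.31, PPARD 0.00 and TFAM 0.13 (postnatal against prenatal), PPARD 0.02 and TFAM 0.10 (late against early fetal), and PPARGC1A 0.27 and PPARD 0.32 (D0 against E105). Without D0, PPARGC1A was -0.03 for postnatal against prenatal. Quantile normalisation also took ESRRA (0.89) and PPARGC1B (-0.76) at D0 below the fold minimum, and NRF1 to -0.43 across birth. The cause was not tested.

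Leaving out 1 library at a time gave 14105 to 14126 genes in the F test, and 3733 to 3826, 2146 to 2238, 1550 to 2092, 1274 to 1835, 298 to 364 and 5720 to 6852 in the other comparisons in the order above. PPARGC1A then ranged from -0.31 to 0.27 and PPARD from -0.13 to 0.13 for D0 against E105. Replicate numbers did not pair the libraries: across stages the deviations of same-numbered libraries had a median r of 0 (-0.487 to 0.412), and 28 of 81 libraries correlated best with their own number. With the replicate number as a block the counts were 14118 for the F test and 3781, 2188, 1727, 1481, 324 and 6096 in the same order, and no regulator changed its call. Transcripts near or below 1 FPKM, ESRRG above all, are limited by an unknown depth.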
